A study of Mus musculus with 18 samples.

Results

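The sites described here are stretches of the mouse genome between protein-coding genes where the homeodomain transcription factor Pitx1 was mapped in hindlimb buds and where no site of the T-box factor Tbx5 was mapped close by in forelimb buds. They were taken from the Pitx1 chromatin immunoprecipitation sequencing (ChIP-seq) sample of wild-type CD1 hindlimb buds at e11.5. CD1 is an outbred strain, and the embryos came from timed breedings. Sites with a neighbouring summit in the Tbx5 sample, from wild-type CD1 forelimb buds at e10.5, were left out. Both antibodies are labelled homemade. Each factor has 1 sample. The samples differ at once in factor, in limb, in stage and in antibody, and these cannot be told apart. The series holds 18 samples, of which those for histone marks and input are not analysed here. A limb bud mixes mesenchyme, ectoderm, vessels and migrating muscle precursors, and the files do not say in which of these cells a site was bound.

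A summit is the highest point of a called peak. A site was a member when its summit was in both deposited Pitx1 lists, lay outside protein-coding genes and 1 to 100 kb from the nearest one, and had no Tbx5 summit within 1000 bp. Of 54941 Pitx1 summits, 17783 were in the second list, 4548 of these lay 1 to 100 kb from a gene, and 3710 of those had no Tbx5 summit within 1000 bp. The series holds 65214 summits of both factors. Members were thus chosen by position, by presence in the second list and by the distance to Tbx5 summits, and these values are given as descriptions. Replicate error cannot be estimated from single samples, so nothing was tested, and the intervals given reflect only how many summits were counted.

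Pitx1 is the gene that marks the hindlimb field and gives the hindlimb its identity, in part by raising Tbx4, its T-box partner gene in the hindlimb. Pitx proteins bind DNA through a homeodomain of the bicoid type, which recognises TAATCC. Regulatory DNA of developmental genes often lies outside the genes, where enhancers act over distance on the start of transcription. The nearest gene is therefore a name for a position and not a target.

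Sequences at the summits could be read for the members that fall in a RefSeq promoter window, which runs from 250 bases before to 50 bases after a gene's start. Of the 3710 members, 36 lay in such a window, and all 36 belonged to long non-coding RNA (lncRNA) genes. Windows of protein-coding genes could hold no member, since the rule keeps members at least 1 kb from those genes. The shown stretches are up to 50 bases on either side of the summit, 5′ to 3′ on the lncRNA strand, from the RefSeq windows of build GRCm38.p6. Capitals mark TAATCC or its reverse complement GGATTA. They come from deposited summit positions and carry scores of 200, 183, 130, 36.4, 11.54 and 435 in the order shown. The first 5 were chosen to show the motif at or near the summit at both high and low scores, and the last because its site has the highest score in any window. The summit is base 51 in each except Gm31005, where it is base 41.
Gm13790: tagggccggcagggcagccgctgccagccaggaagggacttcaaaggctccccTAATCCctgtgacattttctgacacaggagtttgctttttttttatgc
Gm32328: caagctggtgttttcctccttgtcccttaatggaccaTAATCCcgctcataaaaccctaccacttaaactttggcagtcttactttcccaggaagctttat
2810433D01Rik: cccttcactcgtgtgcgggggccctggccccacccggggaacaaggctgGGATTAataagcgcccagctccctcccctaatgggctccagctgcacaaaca
Gm31005: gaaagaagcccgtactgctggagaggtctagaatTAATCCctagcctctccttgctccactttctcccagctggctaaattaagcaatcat
Gm46948: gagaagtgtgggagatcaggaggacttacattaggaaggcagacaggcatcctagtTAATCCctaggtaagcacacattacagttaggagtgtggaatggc
A730013G03Rik: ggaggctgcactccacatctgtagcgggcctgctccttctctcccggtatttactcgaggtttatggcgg
They span chr5:114551080-114551180 (plus strand), chr6:51129383-51129483, chr11:102624422-102624522, chr11:97311265-97311355, chr6:4465293-4465393 and chr1:192835164-192835233 (the last 5 on the minus strand).

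The Pitx motif was present in the windows of 10 of these 36 members, or 27.8% (exact Clopper-Pearson 95% interval 14.2 to 45.2). Both strands were searched. Counted as windows, 10 of the 38 that hold a member had it, or 26.3% (13.4 to 43.1). Of all 32851 RefSeq promoter windows of 300 bases 7.06% held TAATCC, and of the 11588 lncRNA windows 8.23%. Of the 837 windows with any Pitx1 summit of the second list 22.3% held it, which lies within the interval. The middle of the nearest match lay within 10 bp of the summit in 4 of the 10 members, within 25 bp in 6 and within 50 bp in 8. In the stretch of 2810433D01Rik the match starts 1 base before the summit. Among the 11 windowed members with a score of at least 40, 5 held the motif. The stretch at A730013G03Rik, with a score of 435, holds none. The related letters TAATCT were in 21.1% of the 38 windows that hold a member (9.55 to 37.3), with 1 overlapping pair counted as 2 windows. They were in 8.19% of all windows, 10.3% of lncRNA windows and 10.4% of windows with a Pitx1 summit of the second list, and the last 2 lie within the interval. TAATTA, a common homeodomain core, was in 5.26%, against 5.29% of all windows and 6.68% of lncRNA windows. AGGTGT, the T-box core, was in 3 of the 38, or 7.89% (1.66 to 21.4). It was in 13.7% of all windows, 15.7% of lncRNA windows and 10.3% of windows with a Pitx1 summit of the second list. These values all lie within the interval. The 38 windows include 2 pairs that overlap almost fully. The windows with a member were a median of 50.3% G and C. That lies below the 52.7% of all windows and above the 48.3% of lncRNA windows. Windows with a Pitx1 summit of the second list were at 56.3%.

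Members were spread over the whole distance range, with little change in their number per length of sequence. The median distance to the nearest gene was 27.2 kb, with quartiles of 10.2 and 54.7 kb. The gene on the other side of the gap was a median of 121.8 kb away. The sequence between 1 and 100 kb from genes adds up to 841.6 Mb, so there were 4.41 members per Mb (exact Poisson 95% interval 4.27 to 4.55). Counted in classes of distance, members per Mb were 4.73 (4.01 to 5.55) at 1 to 2 kb, 4.24 at 2 to 5 kb and 3.90 (3.54 to 4.30) at 5 to 10 kb. They were 3.92 at 10 to 20 kb, 4.65 at 20 to 50 kb and 4.72 (4.44 to 5.01) at 50 to 100 kb. Density was thus nearly level, with a shallow dip between 5 and 20 kb, where the interval at 5 to 10 kb does not reach that at 50 to 100 kb. Sites of the second list with a Tbx5 summit within 1000 bp, 838 in all, numbered 1.15 per Mb at 1 to 2 kb (0.811 to 1.59), 0.583 at 2 to 5 kb (0.430 to 0.773) and 0.783 at 5 to 10 kb. They numbered 0.829 at 10 to 20 kb, 1.01 at 20 to 50 kb and 1.33 (1.18 to 1.49) at 50 to 100 kb. The nearest and the farthest class overlap in their intervals, and the class at 2 to 5 kb was the lowest. Pitx1 summits without Tbx5 that were absent from the second list, 8839 in all, numbered 18.9 per Mb at 1 to 2 kb, 12.9 at 2 to 5 kb, and 9.52 to 10.9 in the 4 classes from 5 to 100 kb.

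**Figure D1:**
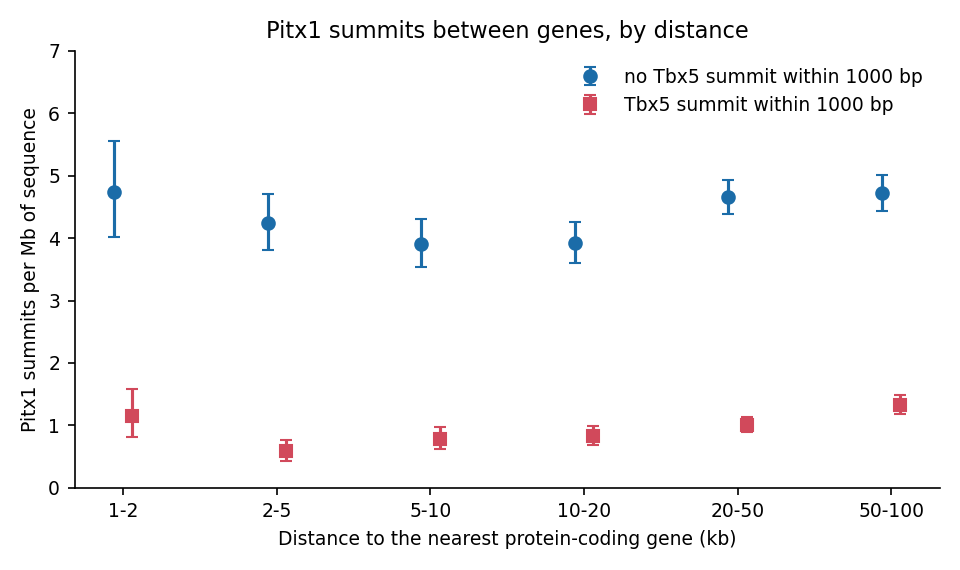
Pitx1 summits of the second list per Mb of sequence (vertical axis) in 6 classes of distance to the nearest protein-coding gene (horizontal axis, kb), with exact Poisson 95% intervals. Circles are the 3710 members and squares the 838 sites with a Tbx5 summit within 1000 bp. Circles stay between 3.90 and 4.73, and squares between 0.583 and 1.33.

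The members were about equal in number on both sides of genes, but denser after gene ends. The strand of the nearest gene was known for 2830 members. Of these, 1425 were before the start of the gene, or 50.4% (48.5 to 52.2), and 1405 after its end. The sequence before gene starts is longer, so members per Mb were 4.03 (3.82 to 4.24) before starts and 4.59 (4.35 to 4.83) after ends, with intervals that do not overlap. Median distances were 27.7 and 27.3 kb. Chromosome Y, where the second list has no summit, was not left out of these lengths, and no density by side was computed without it. Genes of unknown strand, nearest to 880 members, are in neither length.

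Between protein-coding genes does not mean outside all genes. Of the members, 714 lay inside an lncRNA gene, or 19.2% (18.0 to 20.6), while lncRNA genes cover 11.9% of the sequence the rule allows. Pseudogenes held 19 members, miRNA genes none (0 of 3710, which allows a share of up to 0.0994% by the exact binomial interval), and 4 members were within 1 kb of a miRNA gene.

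A summit's score was taken to be its q-value from peak calling written as −log10, an assumption from the caller's file format and the lowest values. On that reading a higher score means a more secure peak and not, on its own, more binding. The members' median score was 17.4, with quartiles of 8.90 and 34.5 and a range of 1.64 to 440, and 199 members scored at least 100. The second list carries a further score that no source used here explains. In the members it had a median of 94.8, quartiles of 66.5 and 160.1 and a range of 50.02 to 2279. Taking the 2 deposited distances from the summit gives a stretch around it, with a median length of 460 bp. Of the members, 14 share such a stretch in 7 pairs, and both members of each pair carry the same second score. The second score therefore belongs to the stretch and not to the single summit. Over the 3710 members both scores had a Spearman correlation of 0.659, given as a description, since the points share 1 sample. The 742 members with the lowest scores had a median second score of 66.5, and the 742 with the highest 240. Of the 100 highest members by either score, 58 were the same.

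**Figure D2:**
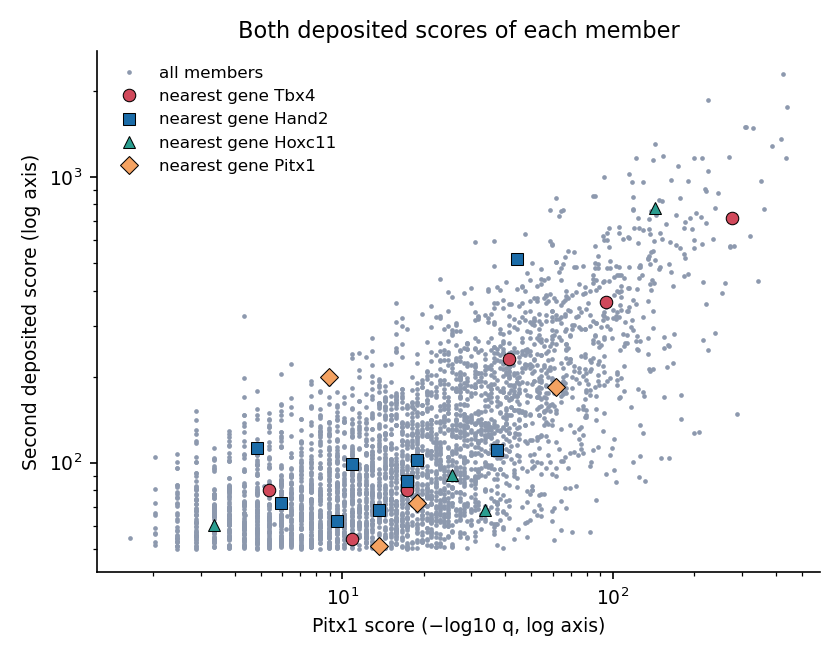
The second deposited score (vertical, log axis) against the −log10 q score (horizontal, log axis) of each of the 3710 members, with those nearest to Tbx4, Hand2, Hoxc11 and Pitx1 marked. The second score is higher at higher scores, with a median of 66.5 in the 742 members of lowest score and 240 in the 742 of highest score, and no member lies below 50.02.

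Scores differed more with a nearby Tbx5 summit than with position. The 838 sites between genes with a Tbx5 summit within 1000 bp had a median score of 33.6, with quartiles of 18.1 and 69.6, against 17.4 for the members. Their median second score was 146, against 94.8. Sites without Tbx5 inside genes had medians of 17.4 and 95.4, and those over 100 kb from any gene 19.7 and 102.8. Sites within 1 kb of a gene end had medians of 15.8 and 79.6. Within the members, the score showed almost no relation to distance (Spearman correlation 0.0404 over 3710 sites). Without Tbx5, 29.6% (28.8 to 30.4) of the summits between genes were in the second list, and with Tbx5 54.2% (51.7 to 56.7), against 32.4% of all Pitx1 summits. Scores move with this, since the 8839 summits without Tbx5 that are absent from the second list had a median score of 4.84.

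**Figure D3:**
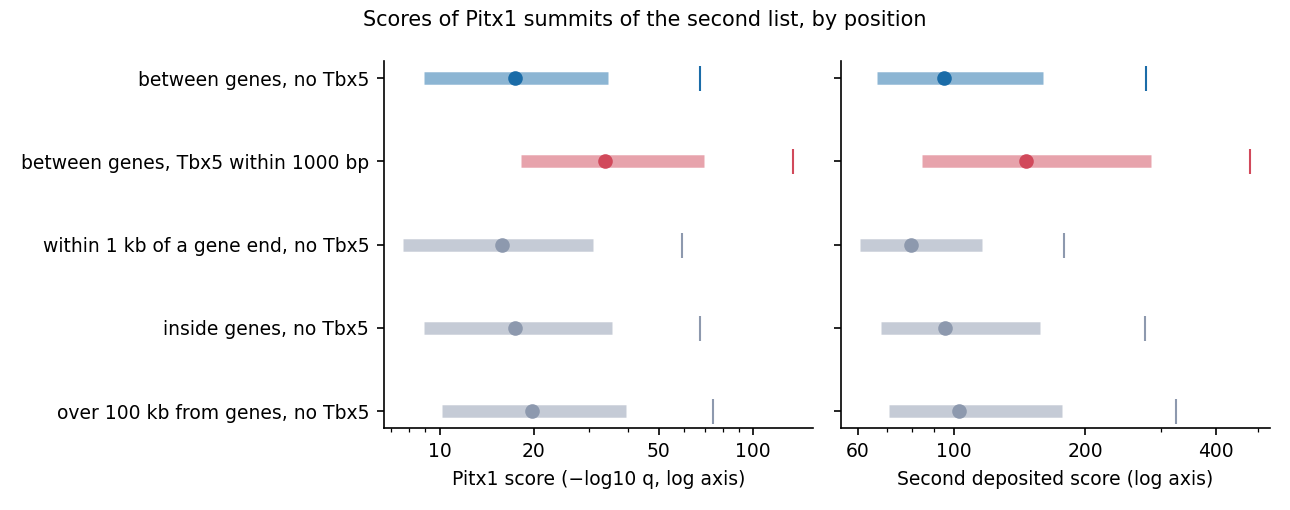
Median (point), quartiles (bar) and 90th percentile (tick) of the −log10 q score (left) and the second score (right) of Pitx1 summits of the second list, by position, both on log axes. The sites between genes with Tbx5 stand to the right of the other rows, and the members nearly coincide with the sites inside genes.

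The highest-scoring members lay near genes of varied function. The highest score, 440, was at chromosome 2 position 165566993, 28.0 kb outside Eya2, which encodes a transcriptional coactivator with phosphatase activity. Its second score was 1749. The site at chromosome 1 position 192835183, 9.29 kb after the end of Sertad4, scored 435, and its stretch at the start of A730013G03Rik is shown above. The third, with a score of 425 and the highest second score of any member (2279), lay at chromosome 10 position 99812561, 52.9 kb before the start of Csl, with Kitl 203.1 kb away on the other side. Kitl encodes the ligand of the Kit receptor. Scores of 420 near Pcsk2, 388 near Tgfbr3, which encodes a co-receptor for TGF-beta, 362 near Akap7 and 353 near Cradd followed. Itgav, which encodes the integrin alpha-V subunit, had a site with a score of 330 at 11.95 kb before its start, and Fancf and Asgr1 had sites with 345 and 321. By the second score, 3 other sites were among the first 5. They lay near Prdm6 (chromosome 18 position 53627268, 1855), Basp1 (1497) and Veph1 (1489), the last with Shox2, a regulator of proximal limb bones, 639.4 kb away on the other side. The Prdm6 site had a Tbx5 summit at 1013 bp, just past the limit that would have left it out.

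Tbx4, the T-box gene that acts in hindlimb outgrowth, had 6 members in 91.2 kb of flank. The strongest lay 10.01 kb before the start of the gene (chromosome 11, 85886367 to 85916097) at position 85876356, with a score of 276 and a second score of 720. It ranked 143 among all Pitx1 summits. The next lay 9.16 kb after the end, with 94.1 and 366. The other 4 formed a group 45.0 to 56.4 kb after the end, with scores of 5.37, 17.4, 41.2 and 10.9. The first pair of this group shares 1 stretch, with a second score of 80.3. The nearest Tbx5 summit to the strongest member was 9.90 kb away.

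Other genes of hindlimb identity also had members. Of 9 listed genes, 7 had at least 1, against a background of 12.7% of the 19620 protein-coding genes with any sequence 1 to 100 kb away that is closest to them. At least 3 members were found at 4 of the 9, against 1.39% of all genes. Members per Mb of flank were 32.7 (20.2 to 49.9), against 4.41 over all genes. With a score of at least 10 they were 18.7 (9.65 to 32.6), against 3.10. Over all 21 members of the list, the median score was 13.6, against 17.4 for all members, and the median second score 90.4, against 94.8. The gene Pitx1 itself (chromosome 13, 55825044 to 55836190) had 4 members, at 1.47, 22.9, 63.0 and 93.9 kb, with scores of 8.90, 13.6, 61.9 and 18.9. Their second scores were 200, 51.3, 184 and 72. The member closest to the gene thus had the lowest first score and the highest second score. Hoxc11, a posterior Hox gene expressed in the hindlimb, had 4 members within 12.5 kb, of which the strongest lay 3.39 kb from the gene at chromosome 15 position 102960088, with scores of 144 and 775. Hoxc9 had 3 members in a flank of 3.62 kb, with low scores of 8.90, 3.35 and 3.83. Isl1, which acts in hindlimb initiation, had 2 members with scores of 7.67 and 4.84, and Hoxc13 had 1, with a score of 8.90. Hoxc10 and Hoxc12 had none as nearest gene.

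Of 5 forelimb genes, 2, or 40%, had a member, against 12.7% of all genes with any flank. The list had 2 members in all. They were 1 at Tbx5, with a score of 5.92 at 16.5 kb, and 1 at Hoxc4, with a score of 44.2 at 23.7 kb, inside the promoter window of the lncRNA gene Gm30528 and 1105 bp from a Tbx5 summit. Their density of 9.29 per Mb has a wide interval (1.13 to 33.6) that includes the value of all genes.

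Among transcription factors used by both limbs, 42 of 60 with any flank, or 70%, had members, 88 in all, against 12.7% of all genes. At least 3 were found at 12, or 20%, against 1.39%. Members per Mb were 12.5 (10.01 to 15.4). Hand2, a posterior regulator of the bud, had 9, tied with Gm11677 for the most of any gene. They lay on both sides, from 82.7 kb before its start to 44.1 kb after its end. The strongest, 44.9 kb before the start (chromosome 8 position 57276111), had a score of 44.2 and a second score of 514. The other 8 scored between 4.84 and 37.3, and the median of 13.6 was below the 17.4 of all members. Nr2f2, a nuclear receptor gene, had 4 members with scores of 8.28, 14.4, 36.4 and 89.3. Alx4, a paired-type factor of the anterior bud, had a group of 3 at 50.1 to 59.7 kb, with scores of 178, 47.2 and 23.0 that fall toward the gene. Pbx3 had 3, of which 1 scored 111 and the others 6.49 and 7.07.

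Genes of limb signalling had a like density. Of 64 genes, 37, or 57.8%, had members, 84 in all, against 12.7% of all genes. At least 3 were found at 14, or 21.9%, against 1.39%. Members per Mb were 12.9 (10.3 to 15.99). Gas1, which encodes a hedgehog co-receptor, had 6 members, 4 after its end at 17.8 to 49.2 kb with scores of 17.4 to 61.9, and 2 before its start at 65.1 and 78.4 kb with scores of 22.2 and 18.1. Boc, another hedgehog co-receptor gene, had 4, with scores of 7.67, 15.8, 10.9 and 48.2. Axin2, a Wnt feedback inhibitor, had 5, with a highest score of 53.4 at 83.6 kb. Fzd4, a Wnt receptor gene, had 4, all after its end, with scores of 8.90 to 40.2 in 47.8 kb of flank, which is 8.36 per 100 kb. Neither Axin2 nor Fzd4 was the nearest gene, within 100 kb, of any Tbx5 summit. Of 8 posterior Hoxa and Hoxd genes with any flank, 2, or 25%, had members, against 12.7% of all genes. At least 3 were found at 1, or 12.5%, against 1.39%. The members numbered 5 in 0.0451 Mb of flank, 4 at Hoxa13 and 1 at Hoxa11. That gives 110.9 per Mb (36.02 to 259) over a flank so short that it rests on 2 genes. No listed Hoxd gene was the nearest gene of a member.

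**Figure D4:**
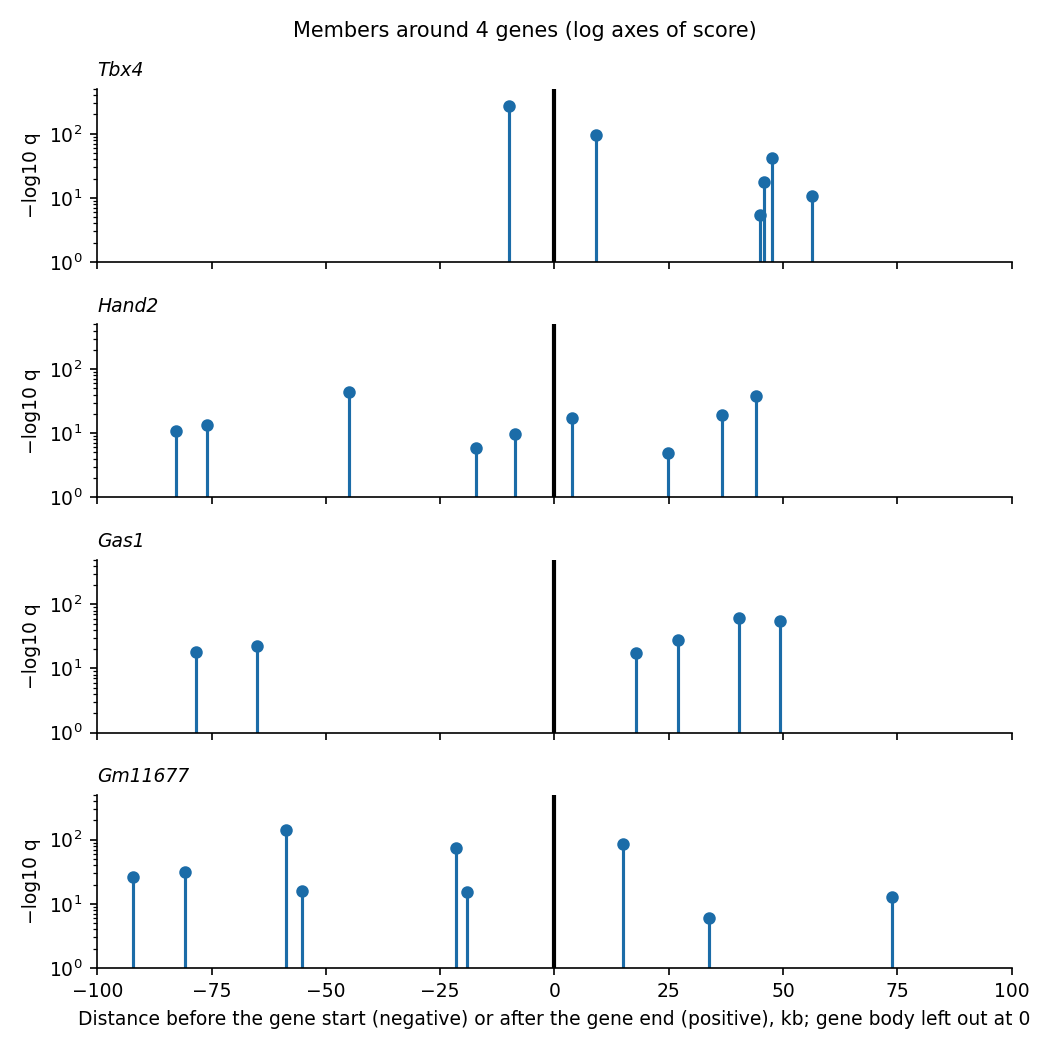
Members around Tbx4, Hand2, Gas1 and Gm11677, at their distance in kb before the gene start (negative) or after the gene end (positive), with the −log10 q score on a log axis. The gene body is left out at 0. The 2 highest Tbx4 members lie about 10 kb either side of the gene, while the 9 at Hand2 are spread over both flanks at scores up to 44.2.

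Lists for cartilage, muscle and other cell types had 5.004 to 13.4 members per Mb. Each lay above the value of all genes, with these exceptions. Ectoderm, endothelium and nerve lay below it when the distance was set to 2 to 50 kb. Blood and nerve, with the forelimb list, lay below it when all RefSeq genes were used. On autosomes alone all genes had 4.95 per Mb, in place of 4.41, and the 5.004 of ectoderm was barely above it. Cartilage and bone genes had 5.98 members per Mb (3.09 to 10.4), with 7 of 28 genes carrying a member, among them Sox9, which sets the cartilage fate, with 3. Muscle genes had 10.4 (5.92 to 16.8), with 9 of 19 genes. Pax3, which marks migrating muscle precursors, had 1 with a score of 134 at 79.4 kb and 1 with 3.83 at 20.98 kb. Ectoderm and apical ridge genes had 5.004 (2.16 to 9.86), with 4 of 29, led by Dlx2 with 4 members of scores up to 16.6. Endothelial genes had 7.66 (3.50 to 14.5), with 3 of 16, among them Fli1 with 4 and Emcn with 3. The 2 stronger Emcn members had second scores of 846 and 767 beside scores of 61.9 and 58.7. Blood genes had 13.4 (4.34 to 31.2), with 2 of 11, 4 of the 5 members being at Ptprc, which encodes the leukocyte antigen CD45. Nerve and Schwann cell genes had 6.999 (2.57 to 15.2), with 3 of 16, led by Elavl4 with 3. As shares of genes with a member, ectoderm had 13.8%, blood 18.2%, endothelium and nerve 18.8% each, cartilage 25% and muscle 47.4%. Over all protein-coding genes with any flank the share was 12.7%, and that of ectoderm was close to it. In the main setting the intervals of cartilage, ectoderm, endothelium, blood and nerve included the 4.41 of all genes, and that of muscle did not. Which of these lists has an interval that includes the value of all genes depended on the setting. With all summits of the longer list, cartilage at 33.9 (26.3 to 42.95), ectoderm at 45.03 (35.2 to 56.7), endothelium at 27.2 (18.6 to 38.5) and nerve at 38.5 (26.5 to 54.1) lay near limb signalling at 38.7, against 14.9 over all genes. With a score of at least 10, the interval of muscle (3.10 to 11.9) included the 3.10 of all genes. The intervals count sites as independent, which neighbours are not, and no list was tested against the others.

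**Figure D5:**
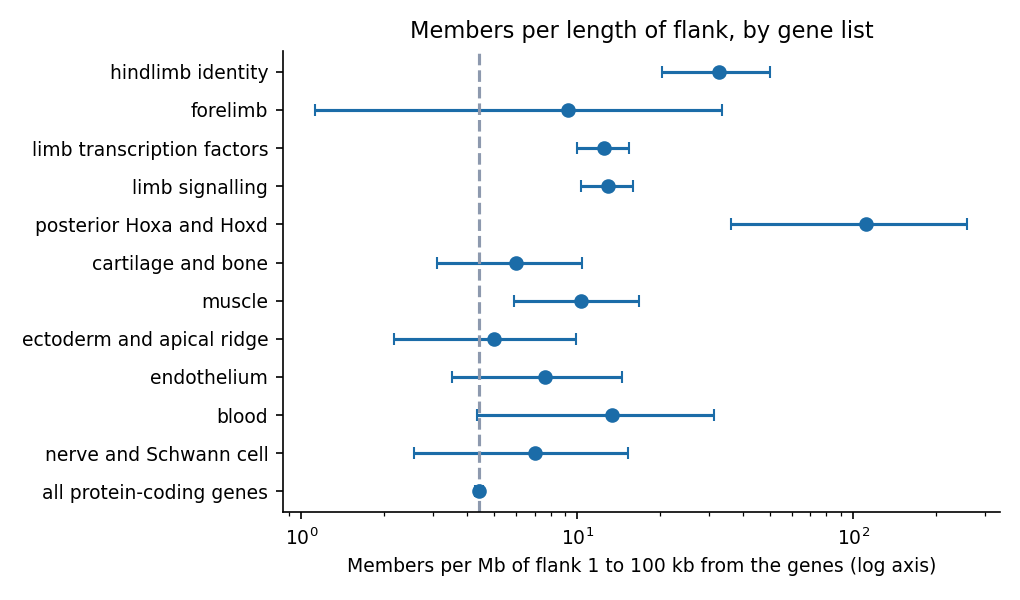
Members per Mb of flank 1 to 100 kb from the genes of each list (horizontal log axis), with exact Poisson 95% intervals and the value of all protein-coding genes, 4.41, as a dashed line. Hindlimb identity at 32.7 and posterior Hoxa and Hoxd genes at 110.9 stand highest, the latter with members at 2 of 8 genes. The lists of other cell types have wide intervals.

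The length of flank moves with these counts. Listed limb transcription factors had a median flank of 118.6 kb, against 21.1 kb over all genes with any. Of all 2993 genes with over 100 kb of flank, 37.0% (35.3 to 38.8) had a member, and of the 109 listed ones 67.9% (58.3 to 76.5). With 10 to 50 kb of flank the shares were 7.95% of 7904 genes and 21.5% (12.3 to 33.5) of 65 listed ones. Members per Mb were 4.52 and 10.1 in the longest class and 3.72 and 15.1 in the shorter one.

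By number, the genes after Gm11677 and Hand2 were Rasgef1b with 8, Gm40514 with 7, and Tbx4, Actrt2, Tas2r134, Asb1, Cabcoco1 and Gas1 with 6 each. In all, 2495 genes had a member, of which 1723 had 1. The 9 members at Gm11677, a predicted gene (chromosome 11, 111721937 to 111726301), lie in the wide gap between Kcnj2 and Sox9. They scored up to 144 at position 111785071, with Sox9 997.1 kb away on its side. At Tas2r134, a bitter taste receptor gene, the 6 scored 4.32 to 95.3. The 6 at Asb1 lie between that gene and Twist2, which encodes a mesenchymal transcription factor, and 4 of them form 1 group. Per length of flank, Hoxc9 was followed by Hoxc11 at 36.3 per 100 kb, Ttc30b at 15.7, Cryzl2 at 14.3, Hoxa13 at 12.97, Ccdc83 at 12.8, Ccdc188 at 10.03, Nedd4 at 8.62, Fzd4 at 8.36 and Tmem207 at 8.36.

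Most members stood alone. Another member lay within 10 kb of 790, or 21.3% (19.99 to 22.6), and the median distance to the next member was 58.3 kb. Counting every Pitx1 summit, 55.2% (53.6 to 56.8) had a neighbour within 10 kb, against 66.7% (63.4 to 69.9) of the sites between genes with Tbx5 and 58.8% (57.8 to 59.8) of those without Tbx5 that are absent from the second list. In the second list without Tbx5, the shares were 61.3% inside genes, 55.95% near gene ends and 52.9% over 100 kb from genes. Chained at 10 kb, 2920 members were single, 322 chains held 2, 40 held 3, 4 held 4 and 2 held 5. The chains of 5 were near Tiam2, over 21.3 kb, and near Aebp2, over 24.0 kb, each with a highest score of 22.2, and the next was the Hoxc11 group. The largest chains thus did not hold the strongest sites.

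The absence of Tbx5 within 1000 bp does not place a member far from Tbx5. A Tbx5 summit lay within 10 kb of 560 members, or 15.1% (14.0 to 16.3), and within 50 kb of 47.8%, with a median distance of 54.5 kb. Just inside that limit, members near Nrde2 and Veph1 at 1003 and 1010 bp scored 29.0 and 23.8. Just outside it, sites near Dab2 and Poc1a at 996 and 986 bp scored 18.9 and 26.4. At the limit of 1 kb from a gene, the members near Smarca2 and Fgf10 lay at 1004 and 1015 bp, with scores of 23.0 and 12.9, and the sites left out near Mfap3l and Lmx1b at 999 and 988 bp, with 24.7 and 3.83. At 100 kb, the members near Tmem200a and Rasgef1b lay at 99942 and 99785 bp, with 7.67 and 8.90, and the sites left out near Top1 and Hs2st1 at 100135 and 100166 bp, with 7.67 and 5.37. With 2 sites on each side of each limit, these scores do not describe the sites beyond it as a group. Over all second-list sites between genes, the median score was 17.4 for members and 33.6 with a Tbx5 summit within 1000 bp.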

How the data were processed

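Summits of Pitx1 (2 lists) and Tbx5 (1 list) were deposited on mm10. HOMER, MACS2 2.1.1.20160309, Bowtie2 2.2.6 and Bowtie 1.1.2 are named, without roles, per the submitters' processing notes. The deposited score was taken to be a q-value on the −log10 scale, as MACS2 writes to summit files, and the lowest values, 1.31 and 1.42, lie just above −log10 of 0.05. The deposited second score is not explained per the labels or file headers. The sources used here give no aligner settings, control library or read depth, so the precision that depth allows is unknown.

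Genes were the 21883 protein-coding genes of the RefSeq table of GRCm38.p6 on the chromosomes in the lists, and strand was known for 17491 through the RefSeq promoter table. A member's gene is the nearest gene body. Flank is the sequence nearest to a gene and 1 to 100 kb away, assembly gaps included. The table gives no exons. With no genome, the planned motif count was made in RefSeq promoter windows. Named genes are the 10 with the most members, the 10 densest with at least 3 members and the first 4 of each of 11 lists of 270 genes, and named sites the 10 highest scores, the 5 highest second scores, the 3 largest chains and the 2 on each side of each limit. Other genes named were chosen after their values were seen, and some genes the rule names are not reported here. Members, lists and rules were chosen with earlier results of these data known. Densities were tested on simulated data. Python 3.11.15, pandas 2.3.3 and scipy 1.17.1 were used. Alternatives changed the Tbx5 distance, distance range, gene set, score minimum, list, chromosomes and assignment.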

Additional observations from a re-analysis of the deposited data

How the results depend on the processing

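Each factor has 1 sample, so all values lack a replicate check. No paired analysis was possible because each group has 1 sample. Of the alternative values of the main results, 35 stayed within their counting interval (the number of members, within 1.5 times) and 21 moved. Autosomes alone and the assignment to either flanking gene were chosen after seeing the data. With all summits of the longer list there were 12549 sites in place of 3710, with a median score of 6.49, a median distance of 23.3 kb, 49.2% with another within 10 kb, 27.1% of genes with a site and 43.2 per Mb at listed genes in place of 11.6. With a score of at least 10, the median score was 25.5, the share with a neighbour 18.1%, the share of genes 9.58%, listed genes 8.36 per Mb and the correlation of both scores 0.637. With Tbx5 excluded to 5000 bp, the share with a neighbour was 19.3%, the share of genes 12.1% and listed genes 10.1 per Mb. At 2 to 50 kb from genes, the median distance was 18.5 kb and the share of genes 10.4%. With all RefSeq genes, the median distance was 17.7 kb, the share of genes 9.66% and the share before gene starts 46.7%. The share of genes was 13.2% on autosomes and 17.5% with either flanking gene. Listed genes held 2.37 to 2.90 times as many members per Mb as all genes in these settings, and 2.64 in the main one. All 11 lists lay above all genes except at 2 to 50 kb, where ectoderm, endothelium and nerve lay below, and with all RefSeq genes, where forelimb, blood and nerve did. The causes of these moves beyond the changed choice were not tested.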

Other observations

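The number of members per Mb differed between chromosomes. It was highest on chromosome 11, at 6.38 (exact Poisson 95% interval 5.58 to 7.27), and among autosomes lowest on chromosome 7, at 2.90 (2.47 to 3.38), with 229 and 163 members. Chromosome X had 71 members, or 1.09 per Mb (0.849 to 1.37). Chromosome Y had none. The longer Pitx1 list holds 106 summits there and the second list 0, so the rule could find no member on it. Its 40.7 Mb of sequence is part of the length behind the 4.41 per Mb of all genes, which was 4.95 on autosomes alone.

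Some high-scoring sites between genes without Tbx5 are missing from the second list and so are not members. The 2 highest lay 4799 bp from Actg1, at chromosome 11 position 120340888 with a score of 297, and 12652 bp from Ssh1, at chromosome 5 position 113924442 with a score of 152. Of the 8839 such sites, 7 scored at least 100. In the other direction, the member with the lowest score, 1.64, lay near Hsfy2 and had a second score of 54.6.

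Both deposited scores put some members far apart. At chromosome 10 position 81606269, a member 5.08 kb from Tle6 scored 287 with a second score of 148, and the Fancf member scored 345 with 432, a second-score rank of 1050 in its list. The Tle6 site was chosen after its values were seen.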
